A study of Homo sapiens with 12 samples.

Results

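E proteins are basic helix-loop-helix transcription factors that pair with each other or with tissue-restricted partners such as TAL1 and bind E-box motifs in DNA. ID proteins hold a helix-loop-helix but no basic region, so that an E protein paired with an ID protein does not bind DNA. In developing thymocytes E proteins drive rearrangement and pre-T-cell receptor genes, and in T-cell leukaemia ectopic TAL1-class factors take up E proteins in complexes that also hold LIM-only (LMO) proteins and the bridging cofactor LDB1. The genes described here are the E proteins TCF3, TCF4 and TCF12, the inhibitors ID1, ID2 and ID3, and LDB1. They were taken by symbol, and each of the 7 matched 1 row, of 58288 genes listed.

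The study sequenced RNA from HPB-ALL and KOPTK1, which are 2 established human lines of T-cell acute lymphoblastic leukaemia (T-ALL). In each line 3 libraries were from cells infected with a control shRNA against GFP and 3 from cells infected with an shRNA against SHQ1, a factor that assembles H/ACA ribonucleoproteins. All cells were kept with puromycin at 2 μg/ml for 48 h, per the labels. Each line is a single culture line, and nothing in the sources used here says that replicates were separate infections, so the p-values measure only the spread between these libraries, with both shRNAs of a line pooled.

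The 6 libraries of each line carried only a number, and neither the shRNA nor the replicate of a library could be read from it. The cell line of every library was taken from the sample labels and was not checked by other means. The comparison made here was therefore HPB-ALL (libraries 7 to 12) against KOPTK1 (libraries 1 to 6), with both shRNAs together in each line, and the effect of the SHQ1 shRNA was not tested. SHQ1, the target of the knockdown, ranged from 46.3 to 73.0 RPKM (reads per kilobase of exon, scaled to library size) in HPB-ALL, with a median of 60.6, and from 39.0 to 45.7 in KOPTK1, with a median of 42.7. No library was put in an shRNA group by these values.

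Library totals were 36792076 to 42842791 reads in HPB-ALL. They were 34759805, 33905452 and 36098045 reads in KOPTK1 libraries 1, 2 and 3, and 25938761, 25884669 and 22884785 in KOPTK1 libraries 4, 5 and 6. Between 36506 and 38467 genes had a read in 11 of the libraries, and 41131 did in KOPTK1 library 3.

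KOPTK1 libraries 1, 2 and 3 stood apart from KOPTK1 libraries 4, 5 and 6. Over 23087 genes with a mean of at least 1 RPKM, the median absolute log2 difference between 2 libraries was 0.0905 to 0.0963 among libraries 1, 2 and 3 and 0.0896 to 0.103 among libraries 4, 5 and 6. Between these sets it was 0.203 to 0.229. Libraries 1, 2 and 3 were also nearer to HPB-ALL, at 0.234 to 0.261 from its libraries, than libraries 4, 5 and 6 were, at 0.383 to 0.413. Among 3143 genes that differed at least 2-fold between the mean of HPB-ALL and that of KOPTK1 libraries 4, 5 and 6, libraries 1, 2 and 3 all lay between the ranges of both in 77.6%. The cause was not tested, and each tested difference of the 7 genes is given below with and without these libraries.

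The labelled cell type was checked against marker genes. Of 11 T-cell markers matched, all 11 had a mean of at least 1 RPKM. CD3D, a chain of the T-cell receptor complex, was at 291 to 306 RPKM in HPB-ALL and 279 to 315 in KOPTK1. The summed T-cell list was at 1315 to 1368 RPKM in HPB-ALL, 1964 to 1975 in KOPTK1 libraries 1, 2 and 3 and 2456 to 2466 in KOPTK1 libraries 4, 5 and 6. Most of that spread was in TRBC2, a receptor constant chain with a near-identical copy whose count is therefore uncertain, at a mean of 206 RPKM in HPB-ALL and 1072 in KOPTK1. Of the 11 T-cell genes tested, 3 (CD3G, CD7 and LCK) were higher in HPB-ALL, 4 (CD3E, CD247, CD2 and TRBC2) were higher in KOPTK1 and 4 (CD3D, CD5, PTPRC and TRAC) did not pass, beside 35.0% and 30.2% of all tested genes higher in either line (edgeR, adjusted over all genes). PTPRC passed without KOPTK1 libraries 1, 2 and 3 (log2 difference -0.13, edgeR adjusted p = 0.00017) but not without libraries 4, 5 and 6 (-0.02, adjusted p = 0.54), and the other 10 calls were the same in both fits. The B-cell genes MS4A1, PAX5 and CD22 were under 0.5 RPKM in every library. CD79A, a B-cell receptor chain, was the most abundant gene of the B-cell list in both lines, at 40.3 to 47.3 RPKM in HPB-ALL, 23.7 to 24.5 in KOPTK1 libraries 1, 2 and 3 and 5.83 to 7.07 in libraries 4, 5 and 6. The summed list of 7 B-cell genes was at 42.6 to 49.3, 25.6 to 26.5 and 7.49 to 9.05 RPKM in the same order. The myeloid genes MPO and LYZ, the plasmacytoid dendritic genes CLEC4C and LILRA4 and the erythroid genes HBB and KLF1 were under 0.5 RPKM in every library. The summed level of 7 myeloid genes was at most 2.84 RPKM, led by CEBPA in HPB-ALL and CSF1R in KOPTK1. The haemoglobin gene HBA1 was at 1.64 to 2.41 RPKM in HPB-ALL and 1.45 to 2.08 in KOPTK1, and EPOR, the erythropoietin receptor, had medians of 3.42 and 3.14 RPKM, so that not every erythroid gene of the list was near 0. The list of 5 plasmacytoid dendritic genes, led by IL3RA, summed to 5.48 to 7.39 RPKM in HPB-ALL, 6.65 to 9.72 in KOPTK1 libraries 1, 2 and 3 and 12.4 to 13.5 in libraries 4, 5 and 6. The rise of that sum followed IL3RA (log2 difference -0.93, and -1.24 and -0.57 without either set of KOPTK1 libraries), while IRF8 was lower in KOPTK1 (log2 difference 0.40, and 0.40 and 0.39). Whether these marker genes bear on the results below was not tested.

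Of the 7 genes, 4 differed between the lines at an adjusted p under 0.05 (edgeR quasi-likelihood test, Benjamini-Hochberg over all tested genes), and all 4, namely TCF4, ID1, ID2 and LDB1, were higher in KOPTK1. Among all 23087 genes tested, 65.2% passed in either direction, 35.0% with the higher level in HPB-ALL and 30.2% with the higher level in KOPTK1, so that 4 of 7 in either direction is near the background. At a change of at least 1.5-fold as well, 2 of the 7 (TCF4 and ID2) and 24.2% of all genes passed. Without KOPTK1 libraries 1, 2 and 3, 7 of the 7 and 69.5% of all genes passed, and without libraries 4, 5 and 6, 3 of the 7 (TCF4, ID2 and LDB1) and 53.6% of all genes did. The 6 libraries of one line did not overlap with the 6 of the other for TCF4, ID2 and LDB1, 3 of the 7, whereas 46.0% of all tested genes showed no overlap. In bulk libraries, fewer cells that hold a transcript and less of it per cell cannot be told apart.

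Upstream sequences are shown for members with 1 start in the RefSeq table, so that the E-box content before that start can be read beside the levels. The window was the 250 bases before the start (RefSeq, GRCh38.p14), and all 7 genes matched the table, TCF4 with 10 windows, TCF12 with 5 and the others with 1. The general E-box CANNTG, which reads the same on both strands, was in 61.8% of 35116 such windows of all genes. It was in none of the windows of TCF3, ID1, ID3 and LDB1, in 1 of 1 of ID2, in 2 of 5 of TCF12 and in 5 of 10 of TCF4. The form in ID2 was CAGCTG, a form of E-box that E proteins bind, found in 14.0% of all windows. CAGGTG, or CACCTG on the other strand, was in 17.5% of all windows and in none of these genes. CACGTG was in 6.34% of all windows, and in 1 window of TCF12 and 1 of TCF4. The starts are those of RefSeq, and the windows of LDB1 and ID2 lie inside the span that the deposited annotation gives these genes, so they are not upstream of every annotated start. A match is a run of letters and not a site shown to be bound. The window of ID3 lies wholly in exons of the deposited annotation and is not printed, that of ID1 is printed up to the first exon base, and that of ID2 only around its E-box, where 15 of the 30 bases lie in exons of the deposited annotation. Sequences run 5′ to 3′ on the strand of the gene, with CANNTG in capitals.
ID2 (chr2:8681839-8681868, plus strand): tatttaccacccCAGCTGggctcgcgcccc
ID1 (chr20:31605039-31605282, plus strand): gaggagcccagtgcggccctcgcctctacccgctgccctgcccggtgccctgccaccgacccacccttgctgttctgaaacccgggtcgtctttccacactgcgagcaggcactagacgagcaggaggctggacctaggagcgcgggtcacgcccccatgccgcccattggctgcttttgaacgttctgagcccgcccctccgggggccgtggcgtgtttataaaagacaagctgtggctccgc
TCF3 (chr19:1652616-1652865, minus strand): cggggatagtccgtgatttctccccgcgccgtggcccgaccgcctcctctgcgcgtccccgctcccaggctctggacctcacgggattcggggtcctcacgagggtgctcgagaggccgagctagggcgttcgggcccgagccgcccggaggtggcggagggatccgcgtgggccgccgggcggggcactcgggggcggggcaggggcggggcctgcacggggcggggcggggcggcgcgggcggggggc
LDB1 (chr10:102115003-102115252, minus strand): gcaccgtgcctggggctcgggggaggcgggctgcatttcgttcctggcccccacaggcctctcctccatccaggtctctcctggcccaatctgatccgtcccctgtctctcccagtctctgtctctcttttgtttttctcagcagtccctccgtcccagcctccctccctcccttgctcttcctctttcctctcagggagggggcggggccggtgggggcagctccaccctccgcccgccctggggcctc

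TCF3, which encodes the E proteins E12 and E47 from alternative exons that were not resolved here, is ENSG00000071564.14 at chr19:1609290-1652604 (GRCh38, minus strand). Its level was lowest at 65.7, median 71.2 and highest at 78.3 RPKM in HPB-ALL, and 72.3, 76.2 and 80.6 RPKM in KOPTK1. The ranges overlapped, with HPB-ALL libraries 10, 11 and 12 below every KOPTK1 library. The log2 difference, HPB-ALL minus KOPTK1, was -0.10 (95% confidence interval -0.19 to 0.00) and did not pass the threshold (edgeR adjusted p = 0.079). Without KOPTK1 libraries 1, 2 and 3 it was -0.13 and passed (edgeR adjusted p = 0.019), in a fit in which 69.5% of all genes passed. Without libraries 4, 5 and 6 it was -0.08 and did not pass (edgeR adjusted p = 0.21). With library totals in place of the scaling factors it was -0.13 and passed (edgeR adjusted p = 0.016). Leaving out 1 library also decided the call for TCF3, which passed without HPB-ALL library 7 (adjusted p = 0.047), HPB-ALL library 9 (0.034) or KOPTK1 library 3 (0.047) at log2 differences of -0.11, -0.12 and -0.11.

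TCF12, which encodes the E protein HEB, is ENSG00000140262.17 at chr15:56918623-57289853 (GRCh38, plus strand). HPB-ALL libraries were at 63.2 to 67.2 RPKM with a median of 65.2, and KOPTK1 libraries at 61.0 to 67.1 with a median of 63.6. KOPTK1 libraries 1, 2 and 3 (65.3 to 67.1 RPKM) lay within the range of HPB-ALL, and libraries 4, 5 and 6 (61.0 to 61.9 RPKM) lay below it. Over all libraries the log2 difference was 0.03 (95% confidence interval -0.03 to 0.10, edgeR adjusted p = 0.38). The direction depended on the KOPTK1 libraries used. It was 0.09 without libraries 1, 2 and 3, past the threshold (edgeR adjusted p = 0.0051), and -0.04 without libraries 4, 5 and 6 (adjusted p = 0.26).

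TCF4, the E protein E2-2, which directs the development of plasmacytoid dendritic cells, was the least abundant of the 7 genes in every library. It is ENSG00000196628.15 at chr18:55222331-55636027 (GRCh38, minus strand). In HPB-ALL it was at 1.09 to 1.28 RPKM with a median of 1.17, from 3613 reads in all. In KOPTK1 it was at 2.21, 2.21 and 2.49 RPKM in libraries 1, 2 and 3 and at 3.15, 3.11 and 2.95 RPKM in libraries 4, 5 and 6. Every KOPTK1 library was thus above every HPB-ALL library, and libraries 1, 2 and 3 lay between HPB-ALL and libraries 4, 5 and 6. The level in KOPTK1 was 2.26 times that in HPB-ALL (log2 difference -1.18, 95% confidence interval -1.38 to -0.97, edgeR adjusted p = 3.2e-07). The log2 difference was -1.37 without KOPTK1 libraries 1, 2 and 3 and -0.98 without libraries 4, 5 and 6, and passed the threshold both times (edgeR adjusted p = 1.3e-13 and 1.3e-09). IL3RA, the interleukin 3 receptor chain that plasmacytoid dendritic cells also express, was at 3.57 to 5.64 RPKM in HPB-ALL and 4.96 to 12.4 in KOPTK1, with library 3 within the range of HPB-ALL. Of the other genes of that marker list, IRF8 was higher in HPB-ALL, with means of 1.28 and 0.963 RPKM, as was the untested SPIB, with means of 0.528 and 0.183. CLEC4C and LILRA4, which define those cells, reached no more than 0.142 and 0.239 RPKM in any library.

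ID2, an inhibitor best known for its part in innate lymphoid and natural killer cells, showed the largest difference of the 7 genes. It is ENSG00000115738.9 at chr2:8678845-8684453 (GRCh38, plus strand). HPB-ALL libraries were at 4.67 to 6.21 RPKM with a median of 5.48. KOPTK1 libraries 1, 2 and 3 were at 14.3, 13.1 and 13.9 RPKM, and libraries 4, 5 and 6 at 19.9, 18.5 and 19.8. No library of one line reached the range of the other, and libraries 1, 2 and 3 again lay in between. The level in KOPTK1 was 3.07 times that in HPB-ALL (log2 difference -1.62, 95% confidence interval -1.87 to -1.37, edgeR adjusted p = 1.3e-07). The log2 difference was -1.85 without KOPTK1 libraries 1, 2 and 3 and -1.37 without libraries 4, 5 and 6 (edgeR adjusted p = 6.3e-14 and 2.8e-10). An antisense gene, ID2-AS1, shares 10 exon bases with ID2 and had a mean of 22.4 reads per library.

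ID1, a target of bone morphogenetic protein signalling in many cell types, is ENSG00000125968.8 at chr20:31605283-31606515 (GRCh38, plus strand). Its level was 50.7, 49.0, 39.4, 48.1, 39.6 and 35.9 RPKM in HPB-ALL libraries 7 to 12. In KOPTK1 it was 46.1, 48.4 and 41.1 RPKM in libraries 1, 2 and 3 and 65.0, 60.1 and 69.5 RPKM in libraries 4, 5 and 6. Libraries 1, 2 and 3 lay within the range of HPB-ALL, and libraries 4, 5 and 6 lay above it. ID1 also varied more within each line than the other 6 genes, with a coefficient of variation of 14.1% in HPB-ALL and 20.8% in KOPTK1. The log2 difference between the lines was -0.33 (95% confidence interval -0.60 to -0.05, edgeR adjusted p = 0.038). That call rested on KOPTK1 libraries 4, 5 and 6, without which the log2 difference was -0.06 (adjusted p = 0.62), while it was -0.57 without libraries 1, 2 and 3 (edgeR adjusted p = 1.4e-05). It was also lost when any 1 of HPB-ALL libraries 9, 11 and 12 or KOPTK1 libraries 4, 5 and 6 was left out (log2 differences of -0.30, -0.30, -0.27, -0.28, -0.30 and -0.25, with edgeR adjusted p-values of 0.082, 0.079, 0.089, 0.082, 0.069 and 0.088).

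ID3, which is induced through EGR factors downstream of the T-cell receptor, is ENSG00000117318.8 at chr1:23557918-23559794 (GRCh38, minus strand). It had the narrowest spread of the 7 genes in HPB-ALL, at 69.8 to 72.1 RPKM with a median of 70.6 and a coefficient of variation of 1.10%. In KOPTK1 it was at 70.9, 64.2 and 71.1 RPKM in libraries 1, 2 and 3 and at 76.2, 76.9 and 78.2 RPKM in libraries 4, 5 and 6. Libraries 4, 5 and 6 were above every HPB-ALL library, and library 2 was below all of them. Over all libraries the log2 difference was -0.04 (95% confidence interval -0.14 to 0.05, edgeR adjusted p = 0.40). It was -0.12 without KOPTK1 libraries 1, 2 and 3, past the threshold (edgeR adjusted p = 0.0012), and 0.03 without libraries 4, 5 and 6 (adjusted p = 0.55).

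LDB1, which joins LMO proteins and their DNA-binding partners into one complex, is ENSG00000198728.10 at chr10:102107560-102120453 (GRCh38, minus strand). It was at 41.6 to 45.3 RPKM in HPB-ALL with a median of 43.8. KOPTK1 libraries were at 49.1, 49.2 and 51.1 RPKM (1, 2 and 3) and at 53.5, 55.7 and 52.8 RPKM (4, 5 and 6). All KOPTK1 libraries were above all HPB-ALL libraries by a small margin. The level in KOPTK1 was 1.19 times that in HPB-ALL (log2 difference -0.25, 95% confidence interval -0.33 to -0.17, edgeR adjusted p = 5.7e-05). It passed without KOPTK1 libraries 1, 2 and 3 at -0.31 (edgeR adjusted p = 2.1e-07) and without libraries 4, 5 and 6 at -0.20 (adjusted p = 7.2e-05). LDB2, the other member of the LDB family, reached no more than 0.0833 RPKM in any library.

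**Figure D1:**
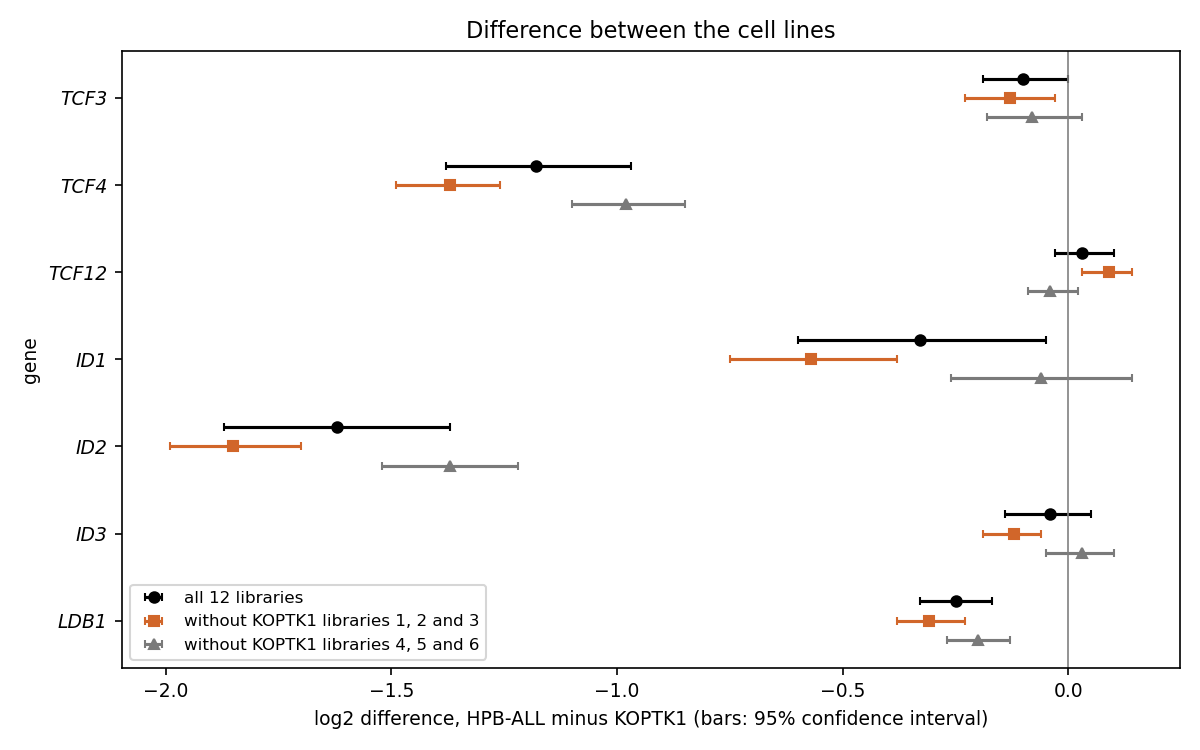
Log2 difference between the lines, HPB-ALL minus KOPTK1 (horizontal axis), for each gene, as points with 95% confidence intervals from edgeR, over all 12 libraries (circles), without KOPTK1 libraries 1, 2 and 3 (squares) and without KOPTK1 libraries 4, 5 and 6 (triangles). TCF4, ID2 and LDB1 stayed below 0 in each fit, whereas TCF12 and ID3 lay on both sides of 0.

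Per length of exon, TCF3 and ID3 shared the top of the order. TCF3 ranked first in HPB-ALL libraries 7, 8 and 9 and in KOPTK1 libraries 1 to 5, and ID3 ranked first in HPB-ALL libraries 10, 11 and 12 and in KOPTK1 library 6. In HPB-ALL the means were 71.8 ± 5.19 RPKM for TCF3, 70.8 ± 0.777 for ID3 and 65.5 ± 1.5 for TCF12 (SD, n = 6), so that TCF3 and ID3 did not differ beyond their spread. ID1 (43.8 ± 6.19) and LDB1 (43.7 ± 1.48) followed and changed places from library to library. In KOPTK1 the means were 76.8 ± 3.07 for TCF3, 72.9 ± 5.26 for ID3, 64.0 ± 2.71 for TCF12, 55.0 ± 11.4 for ID1 and 51.9 ± 2.60 for LDB1 (SD, n = 6). Neighbours in this order were closer than their spread, apart from the step between ID3 and TCF12. ID3 and TCF12 overlapped in KOPTK1 libraries 1, 2 and 3 (64.2 to 71.1 and 65.3 to 67.1 RPKM), with TCF12 higher in library 2. In libraries 4, 5 and 6 they were apart, at 76.2 to 78.2 and 61.0 to 61.9 RPKM. ID2 and then TCF4 came last in all 12 libraries. Among 11786 protein-coding genes tested, ID3 was above 94.8% in HPB-ALL and 96.0% in KOPTK1. ID2 was above 26.7% of them in HPB-ALL and 64.1% in KOPTK1, and TCF4 above 3.52% and 13.6%.

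The E protein sum was nearly all TCF3 and TCF12 in both lines. The median share of TCF3 in the summed RPKM of TCF3, TCF4 and TCF12 was 52.1% in HPB-ALL and 53.5% in KOPTK1, and that of TCF4 was 0.855% and 1.93%. The ID sum was mostly ID3 and ID1. ID3 held a median of 58.9% of the summed RPKM of ID1, ID2 and ID3 in HPB-ALL and 50.3% in KOPTK1. The share of ID2 was 3.71 to 5.34% in HPB-ALL and 10.4 to 12.3% in KOPTK1, without overlap.

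The summed level of E proteins over that of ID proteins was 1.15, 1.11, 1.28, 1.07, 1.15 and 1.19 in HPB-ALL libraries 7 to 12. It was 1.10, 1.15 and 1.12 in KOPTK1 libraries 1, 2 and 3 and 0.90, 0.93 and 0.84 in KOPTK1 libraries 4, 5 and 6. The ratio was thus above 1 in 9 libraries, and below 1 in KOPTK1 libraries 4, 5 and 6 alone. The E protein sum was alike throughout, at 132 to 147 RPKM in HPB-ALL and 140 to 145 in KOPTK1. The ID sum was 111 to 127 RPKM in HPB-ALL, 126 to 131 in KOPTK1 libraries 1, 2 and 3 and 155 to 168 in libraries 4, 5 and 6. These ratios of RNA levels are a description without a test, and say nothing of protein.

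The partners that E proteins and LDB1 meet in T-ALL complexes were taken as a list of 19 genes. Of these, 11 were tested, 7 were higher in HPB-ALL, 3 were higher in KOPTK1 and 1 (SSBP3) did not pass (edgeR, adjusted over all genes), beside 35.0% of all tested genes higher in HPB-ALL and 30.2% higher in KOPTK1. The median log2 difference was 0.20, beside 0.01 over all tested genes. TAL1, which pairs with E proteins, was at 39.6 to 45.9 RPKM in HPB-ALL, 23.6 to 26.2 in KOPTK1 libraries 1, 2 and 3 and 12.3 to 12.6 in libraries 4, 5 and 6. The LIM-only genes LMO1 and LMO4 were also higher in HPB-ALL, with means of 3.07 and 5.37 RPKM against 0.999 and 1.65 in KOPTK1. CBFA2T3 (ETO2), a corepressor bound by E proteins, had a mean of 36.0 RPKM in HPB-ALL and 19.8 in KOPTK1 (log2 difference 0.86, edgeR adjusted p = 6.0e-04). In each of these 4 genes KOPTK1 libraries 1, 2 and 3 lay between HPB-ALL and libraries 4, 5 and 6. Without libraries 1, 2 and 3 the log2 differences were 1.79 for TAL1, 2.69 for LMO1, 3.30 for LMO4 and 1.38 for CBFA2T3, against 1.19, 1.56, 1.67 and 0.86 with all 12 libraries. Without libraries 4, 5 and 6 they were 0.75, 1.0, 0.95 and 0.47.

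LMO2, which was under the minimum for testing, was at 0.0787 to 0.264 RPKM in HPB-ALL and at 0.96 to 2.48 in KOPTK1. The genes of the partner list that passed with the higher level in KOPTK1 were the transcription factors MYB, GATA3 and RUNX1. MYB, the most abundant gene of the list in both lines, had a mean of 115 RPKM in HPB-ALL and 180 in KOPTK1 (log2 difference -0.65, and -0.77 and -0.52 without libraries 1, 2 and 3 or 4, 5 and 6). GATA3 and RUNX1 differed less, with log2 differences of -0.19 and -0.18 (-0.22 and -0.23 without libraries 1, 2 and 3, and -0.16 and -0.15 without libraries 4, 5 and 6). CBFB, the partner of RUNX1, went the other way, with means of 67.9 and 53.0 RPKM (log2 difference 0.36, and 0.41 and 0.29 without either set). The single-stranded DNA binding proteins that stabilize LDB1 were close between the lines, at log2 differences of 0.10 for SSBP2, -0.06 for SSBP3 and 0.20 for SSBP4, and without KOPTK1 libraries 4, 5 and 6 SSBP2 (0.04, edgeR adjusted p = 0.32) and SSBP4 (0.12, edgeR adjusted p = 0.072) did not pass. SSBP3 passed without libraries 1, 2 and 3 (-0.08, edgeR adjusted p = 0.032). TAL2 and LYL1, TAL1-class factors that can stand in for TAL1 in T-ALL, reached at most 0.853 and 0.624 RPKM.

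No gene of a list of 12 other basic helix-loop-helix and ID genes reached the minimum for testing, a mean of 1 RPKM over the 12 libraries. ID4, the remaining ID gene, was at most 0.0932 RPKM, and the most abundant of the list was NHLH1, at 0.271 to 1.14 RPKM.

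Genes known as targets of E proteins in lymphocytes made a list of 12, of which 10 were tested and 10 passed, 7 with the higher level in KOPTK1 and 3 with the higher level in HPB-ALL, where 65.2% of all tested genes passed in either direction. The median log2 difference was -0.61, beside 0.01 over all tested genes. DNTT, the polymerase that adds bases at receptor gene junctions, was at 11.1 to 13.1 RPKM in HPB-ALL and at 48.2 to 65.9 in KOPTK1 (log2 difference -2.24, edgeR adjusted p = 2.2e-09). RAG1, a subunit of the recombinase, was at 2.04 to 2.29 and 8.02 to 11.1 RPKM. RAG2, the other subunit, differed less, with means of 2.82 and 3.92 RPKM, and PTCRA, the pre-T-cell receptor alpha chain, had means of 2.52 and 4.21 RPKM. The cytokine signalling inhibitors SOCS1 (log2 difference -1.65) and SOCS3 (-1.19) and the chemokine receptor CXCR5 (-0.35) were higher in KOPTK1 as well. IGLL1, part of the surrogate light chain, went the other way, at 62.7 to 73.4 RPKM in HPB-ALL, 40.9 to 42.1 in KOPTK1 libraries 1, 2 and 3 and 8.45 to 9.96 in libraries 4, 5 and 6. IL7R and FOXO1 were also higher in HPB-ALL, at means of 1.66 and 1.90 RPKM against 0.765 and 0.973. CD4 and VPREB1 were not tested for low level. Without KOPTK1 libraries 1, 2 and 3 the log2 differences were -2.43 for DNTT, -2.33 for RAG1, -0.44 for RAG2, -0.71 for PTCRA, -1.87 for SOCS1, -1.44 for SOCS3 and -0.42 for CXCR5, and without libraries 4, 5 and 6 they were -2.05, -1.95, -0.52, -0.79, -1.43, -0.93 and -0.31. The genes higher in HPB-ALL moved more, from 1.43, 1.08 and 0.95 for IGLL1, IL7R and FOXO1 over all libraries to 2.90, 1.85 and 1.48 without libraries 1, 2 and 3 and 0.73, 0.62 and 0.58 without libraries 4, 5 and 6.

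A list of 14 genes upstream of ID genes held EGR factors, SMAD proteins, of which SMAD6 and SMAD7 are inhibitory, and receptors of the bone morphogenetic protein and TGF-beta families. Of 11 tested, 5 were higher in HPB-ALL, 4 were higher in KOPTK1 and 2 (SMAD7 and TGFBR2) did not pass, where 65.2% of all tested genes passed, and the median log2 difference was 0.07 beside 0.01 over all tested genes. With the 2 inhibitory SMADs set aside, 4 of 9 were higher in HPB-ALL, 4 were higher in KOPTK1 and 1 did not pass. EGR1 was at 4.80 to 5.71 RPKM in HPB-ALL and at 17.8 to 21.1 in KOPTK1 (log2 difference -1.93, edgeR adjusted p = 1.1e-10). Unlike TAL1, EGR1 was nearly as high in KOPTK1 libraries 1, 2 and 3 (17.8 to 19.3 RPKM) as in libraries 4, 5 and 6 (20.9 to 21.1 RPKM). The receptor-activated SMAD1 and SMAD5 went in opposite directions. SMAD1 was slightly higher in KOPTK1, with means of 9.07 RPKM in HPB-ALL and 10.3 in KOPTK1, whereas SMAD5 was higher in HPB-ALL, with means of 15.7 and 6.40. SMAD4, the shared partner, had means of 8.34 and 12.2 RPKM, and the inhibitory SMAD6 had means of 7.55 and 2.88. Of the receptors, ACVR1 had means of 4.52 RPKM in HPB-ALL and 2.05 in KOPTK1, and BMPR2 had means of 5.42 and 4.34. BMPR1A and TGFBR1 differed by -0.12 and 0.13 on the log2 scale. Without KOPTK1 libraries 1, 2 and 3 the log2 differences were 2.06 for SMAD5, 2.41 for SMAD6, 1.69 for ACVR1 and 0.41 for BMPR2, against 1.28, 1.37, 1.12 and 0.32 over all libraries and 0.78, 0.78, 0.73 and 0.22 without libraries 4, 5 and 6. Without libraries 1, 2 and 3 and without libraries 4, 5 and 6, the values were -2.02 and -1.85 for EGR1. For SMAD4 they were -0.65 and -0.44. SMAD1 (-0.20 and -0.18), BMPR1A (-0.14 and -0.11) and TGFBR1 (0.10 and 0.14) moved less between these fits.

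Genes whose levels ran most like each member across the libraries of a line were ranked by Pearson's r of log2(RPKM + 0.5), over the 6 libraries of each line separately, among 11287 protein-coding genes, and the lower of the r values of both lines set the order. These values are a description. They are the highest among 11287 genes over only 6 libraries of a line, and what such a search reaches by chance was not tested. In KOPTK1 they also carry the step between libraries 1, 2 and 3 and libraries 4, 5 and 6. HPB-ALL libraries 7, 8 and 9 were also farther from libraries 10, 11 and 12 (median absolute log2 difference 0.0966 to 0.112) than from each other, so the values in HPB-ALL can carry that smaller step. By that rule the first for TCF3 was SULT1B1 (r = 0.947 in HPB-ALL and 0.965 in KOPTK1), followed by HDAC4 and CSNK1G2. For TCF4 they were SCPEP1 (0.948 and 0.957), KDSR and ZNF808, and for TCF12 EIF2B1 (0.969 and 0.987), PPM1L and MTHFD1L. For ID1 the same rule gave RHOB (0.956 and 0.976), GNAS and ZFP36L2. For ID2 it gave RAB22A (0.944 and 0.968), BCAS3 and DNAJB6, and for ID3 RPL3 (0.973 and 0.987), ESYT1 and GADD45A. For LDB1 they were ARAF (0.955 and 0.975), UBB and FAM117A. No member was among the first 3 genes of another.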

How the data were processed

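Per the labels, rRNA-depleted RNA of HPB-ALL and KOPTK1 cells was sequenced, and the submitters' processing notes name Trimmomatic 0.36, STAR 2.5.4b, Picard 2.18.7, featureCounts 1.6.2, edgeR 3.22.3 and hg38. The authors deposited 1 table per line with gene lengths and 6 columns of expected counts per gene, not normalized and headed by numbers. Of the values above 0, 24.9% were not whole. The tables also hold the authors' log2 fold change, average log2 CPM, F, p-value and FDR between shRNA groups, which were not used here. The strand setting of the counting is not given in the sources used here. The header numbers match no sample label, so the shRNA groups were not compared, but each sample's description names the table of its line.

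The design foresaw RPKM values, and since the columns hold counts, the count test foreseen for that case was used. Counts were rounded to whole numbers and scaled by median-of-ratios factors over the 12 libraries, and RPKM was computed from the unrounded counts. Genes with a mean of at least 1 RPKM were tested with edgeR 4.0.16 (quasi-likelihood) in R 4.3.3, 6 libraries against 6, with Benjamini-Hochberg adjustment over 23087 genes and a threshold of 0.05. Confidence intervals were derived from the fold change and F. The steps were also run on simulated counts with 200 changed genes. That simulation held no split among KOPTK1 libraries, so it does not show how the p-values behave in these data. Symbols matched 95.8% of 58288 identifiers. Each gene of the lists matched 1 row, except TRBC1, which did not match.

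Alternatives were limma 3.58.1 on log2(RPKM) with pseudocounts of 0.1, 0.5 and 1, no minimum, a minimum of 10 RPKM, upper-quartile factors, library totals, a minimum change of 1.5-fold, and each library left out. DESeq2 1.42.0, TMM factors and both sets of 3 KOPTK1 libraries left out were added after seeing the data. Named genes were the 7 genes, fixed lists of partners, related factors, targets, genes upstream of ID genes (the list named ID inducers) and cell type markers, and the 3 genes with the most similar pattern. The ectopic T-ALL factor list shares TAL1, LMO1 and LMO2 with the partners, and its other 5 genes were under 0.5 RPKM in every library. TLX3, among these 5, was at no more than 0.0365 RPKM in HPB-ALL and 0.293 in KOPTK1. Whether the levels of this list match the labelled lines was not tested. The members and lists were chosen with earlier results of these data known.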

Additional observations from a re-analysis of the deposited data

How the results depend on the processing

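No paired analysis was possible because the columns carry no replicate number. The alternatives with DESeq2, TMM factors or sets of KOPTK1 libraries left out were chosen after seeing the data. TCF4 and ID2 kept their direction and stayed past the threshold in 23 and 24 alternatives, with log2 differences of -1.37 to -0.75 and -1.85 to -1.37. TCF4 was not tested at a minimum of 10 RPKM. LDB1 did so too (-0.31 to -0.20), except that its -0.25 is under a minimum change of 1.5-fold, as is the -0.33 of ID1. ID1 lost its call with upper-quartile factors (-0.30), TMM factors (-0.29), limma at each of 3 pseudocounts (-0.31, with adjusted p-values of 0.055 to 0.057) and without KOPTK1 libraries 4, 5 and 6 (-0.06). TCF3 gained a call with library totals (-0.13, adjusted p = 0.016), DESeq2 (-0.12, adjusted p = 0.029) and without KOPTK1 libraries 1, 2 and 3 (-0.13). Over all alternatives the adjusted p ranged from 1.4e-05 to 0.62 for ID1, from 0.016 to 0.25 for TCF3, from 0.0051 to 0.94 for TCF12 and from 0.0012 to 0.86 for ID3. TCF12 and ID3 gained a call without KOPTK1 libraries 1, 2 and 3 (0.09 and -0.12) and turned to -0.04 and 0.03 without libraries 4, 5 and 6. With each library left out in turn, log2 differences were -0.12 to -0.07 for TCF3 and -0.40 to -0.25 for ID1, which passed in 3 and 6 of 12 fits. For HPB-ALL against KOPTK1, the number of genes past the threshold was 15048, and moved to 6564 of 8505 at a minimum of 10 RPKM, where fewer genes were tested, and to 5588 with a minimum change of 1.5-fold. With no minimum it was 19389 of 48405, a lower share of the genes tested than the 15048 of 23087, so the background share depends on the minimum. It was 14228 to 15241 with each library left out. The E protein to ID ratio, HPB-ALL (mean 1.16), and the E protein to ID ratio, KOPTK1 (mean 1.01), became 0.56 and 0.47 without TCF3, 0.61 and 0.56 without TCF12, 1.82 and 1.62 without ID1, and 2.85 and 2.07 without ID3. For the 39 genes of the lists that passed, 896 values under the alternatives kept their direction and side of the threshold, 23 no longer passed and 0 reversed. Apart from the changes that follow from fewer genes or a stricter rule, the cause was not tested.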

Other observations

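SHQ1 was at 72.4, 73.0 and 72.0 RPKM in HPB-ALL libraries 7, 8 and 9 and at 47.6, 46.3 and 49.2 RPKM in libraries 10, 11 and 12. In KOPTK1 it was at 45.1, 44.1 and 45.7 RPKM in libraries 1, 2 and 3 and at 41.3, 41.2 and 39.0 RPKM in libraries 4, 5 and 6. The values thus fell into separate sets in HPB-ALL and, by a smaller margin, in KOPTK1. Which shRNA these libraries carried is not known, and no test was made between them.

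KOPTK1 library 3, in which the most genes had a read, held low levels of factors that were at or near 0 in the other libraries. MYOD1, a muscle factor, was at 0.409 RPKM there and at no more than 0.0422 in any other library, and TLX3 was at 0.293 RPKM there and at no more than 0.0511 in any other. MPO, a myeloid enzyme, was at 0.348 RPKM there and at no more than 0.108 in any other. These 3 genes were picked from the lists after their values were seen. Of the 7 genes, TCF3 (72.3 RPKM) and ID1 (41.1 RPKM) were at their lowest of the KOPTK1 libraries in library 3.

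Several limits apply to all values. The lines differ in much besides these genes, each is 1 established line, and control and SHQ1 shRNA libraries were pooled, so the spread within a line includes any effect of the knockdown. KOPTK1 libraries 4, 5 and 6 held fewer reads than the others. TCF4 and ID2 had the fewest reads of the 7 genes, with 3613 and 2805 over the 6 HPB-ALL libraries. Isoforms, protein levels and binding to DNA were not analysed here.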
